A study of Mus musculus with 62 samples.

Results

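The genes described here switch mitogen-activated protein (MAP) kinase signalling off. They are 7 dual-specificity phosphatases (Dusp1, Dusp3, Dusp4, Dusp5, Dusp6, Dusp7 and Dusp14) and 3 inhibitors of the Sprouty and Spred families (Spry2, Spry4 and Spred1), 10 genes of the 18821 in the count tables. They were listed by mouse Entrez identifier, and all 10 were found in the liver, prefrontal cortex and striatum tables and passed the filter on low counts in each. Dusp4 was put on the list because its level decreased with dose in the prefrontal cortex, so it was chosen by its measured prefrontal cortex values, which are given as a description and are not tested.

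RNA was sequenced from female C57BL/6 mice, an inbred laboratory strain, that had been given by mouth the MARBLES mixture, a mixture of polychlorinated biphenyls (PCBs, persistent industrial chemicals). The dose groups were 0 mg/kg, labelled vehicle, and 0.1, 1 and 6 mg/kg, and every group shared the sex, strain and route. The prefrontal cortex and the striatum, both taken as tissue punches, gave 4, 5, 6 and 6 libraries in order of rising dose. For the liver there were 4, 4, 6 and 6. The question was whether the transcripts of these inhibitors differ between tissues and with dose.

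MAP kinase cascades pass signals from growth factor receptors and synaptic activity to the nucleus through Ras, Raf, MEK and ERK, with parallel arms that end in p38 and JNK. Dual-specificity phosphatases remove the activating phosphates from the last kinase of a cascade, and Sprouty and Spred proteins act higher up, between the receptor and Raf. Several of them are transcribed in response to ERK itself, which makes them a negative feedback, and in neurons their transcripts follow recent activity.

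Total counts ran from 7381179 to 12135200 over the 62 libraries. In the striatum all 6 libraries at 6 mg/kg (8553800 to 9197051 counts) were below all 4 vehicle libraries (10147296 to 10459212 counts). The 0.1 and 1 mg/kg libraries there lay on both sides of the vehicle range. The tissue labels were checked against markers. Albumin (Alb), made by hepatocytes, was between 50590 and 116205 CPM, the count scaled to the total of the library, in the liver and at most 0.228 CPM in the prefrontal cortex. The summed markers of striatal projection neurons were between 3256 and 7732 CPM in the striatum and between 1167 and 3737 CPM in the prefrontal cortex, so the regions overlapped. Slc17a7, from the list of general neuron markers, was between 1055 and 1845 CPM in the prefrontal cortex. In the striatum it was between 42.2 and 1361 CPM with a median of 179, so its highest striatum value lay within the cortex range. Choroid plexus markers exceeded 1000 CPM in 4 striatum libraries (animals 28, 41, 45 and 52), and neuron markers exceeded 40 CPM in 4 liver libraries (animals 7, 45, 50 and 52). Fewer cells of a type and less RNA per cell cannot be told apart in these bulk libraries.

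The stretches upstream of the transcription start are shown for the inducible phosphatases Dusp1 and Dusp5, which held recognised signal-response motifs, and for Dusp6, which held none of those searched. The 250 bases before the start come from RefSeq in the build GRCm38.p6, at chr17:26508473-26508722 on the minus strand for Dusp1, chr19:53528895-53529144 on the plus strand for Dusp5 and chr10:99262981-99263230 on the plus strand for Dusp6. They are written 5′ to 3′ along the gene, and capitals mark the motifs.
Dusp1: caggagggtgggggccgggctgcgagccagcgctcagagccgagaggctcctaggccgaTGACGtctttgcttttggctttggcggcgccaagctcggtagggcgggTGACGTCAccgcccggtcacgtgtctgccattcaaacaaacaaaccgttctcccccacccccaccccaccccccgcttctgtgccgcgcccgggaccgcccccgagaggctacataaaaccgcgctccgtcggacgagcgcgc
Dusp5: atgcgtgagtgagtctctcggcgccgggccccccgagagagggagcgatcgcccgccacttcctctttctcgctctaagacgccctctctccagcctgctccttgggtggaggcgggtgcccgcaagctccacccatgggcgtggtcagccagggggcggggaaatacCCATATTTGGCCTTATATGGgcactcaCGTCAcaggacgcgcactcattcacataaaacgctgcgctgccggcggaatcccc
Dusp6: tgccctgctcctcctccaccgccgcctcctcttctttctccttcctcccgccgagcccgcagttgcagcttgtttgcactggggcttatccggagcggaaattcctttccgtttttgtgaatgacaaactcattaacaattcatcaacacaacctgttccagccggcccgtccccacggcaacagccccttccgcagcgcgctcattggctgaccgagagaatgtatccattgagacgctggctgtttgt
In Dusp1, a full cyclic AMP response element, TGACGTCA, ran from 143 to 136 bases before the start, and a core of that element, TGACG, lay apart from it at 191 to 187. In Dusp5, a pair of adjoining CArG boxes, the element read by serum response factor, ran from 82 to 73 and from 72 to 63 bases before the start, and a TGACG core on the opposite strand lay at 55 to 51. Promoters were found for 8 of the 10 genes, not for Dusp4 or Spry4. Of the 8, TGACGTCA was in 1, the TGACG core in 2, the CArG box in 1, and the AP-1 element TGANTCA and the EGR element GCGNGGGCG in 0. Both strands were searched, and every TGACGTCA also holds the core. Over all 32851 promoters of the same length, the shares that held each were 1.55% for TGACGTCA, 17.8% for TGACG, 1.47% for the CArG box, 6.75% for TGANTCA and 4.7% for GCGNGGGCG. A match in this window is a description of sequence only.

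In vehicle animals the members split by tissue. Per kilobase of the longest transcript, the highest levels in the prefrontal cortex were those of Dusp3 at 45.9 ± 1.52 CPM per kb, Dusp14 at 41.1 ± 2.32 and Spred1 at 41 ± 4.21 CPM per kb (SD, n = 4 libraries each). Dusp7 (30.2), Dusp6 (29.9), Spry2 (25.5) and Dusp1 (22) CPM per kb came next, and Dusp4 at 8.96 ± 0.952, Dusp5 at 6.64 ± 1.11 and Spry4 at 3.69 ± 0.199 CPM per kb (SD, n = 4) were lowest. In that order the ranges of Dusp14 and Spred1, of Dusp7 and Dusp6, of Spry2 and Dusp1, and of Dusp4 and Dusp5 overlapped, and the other neighbours were apart. The same 3 genes were lowest in the striatum, in the same order, with 6.79, 6.03 and 3.84 CPM per kb. In the liver Dusp6, a cytoplasmic phosphatase of ERK, was highest with 18.7 ± 3.36 CPM per kb (SD, n = 4), followed by Dusp1 at 9 and Dusp3 at 7.79 CPM per kb. Liver levels of Spry2, Dusp14, Dusp5 and Dusp4 were 0.695, 0.56, 0.382 and 0.247 CPM per kb, resting on 2 to 20 counts per library.

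**Figure D1:**
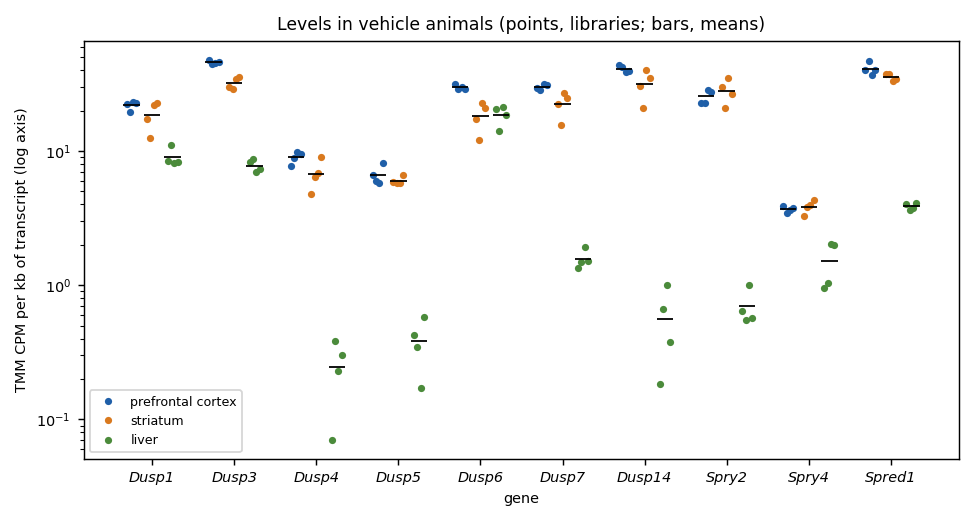
Level of each gene in vehicle animals, as TMM-scaled CPM per kb of the longest transcript on a log axis, with 1 point per library (4 per tissue) and a bar at the mean. Liver points of Dusp4, Dusp5, Dusp14 and Spry2 lie near or under 1 CPM per kb, and those of Dusp6 lie between 14 and 21.5 CPM per kb.

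Liver against prefrontal cortex in vehicle animals, 7 of the 9 genes other than Dusp4 were lower in the liver and passed an adjusted p of 0.05 in edgeR, where 84.9% of all 13838 genes passed in either direction. The log2 differences of those 7 ran from -5.25 for Dusp14 to -0.35 for Dusp1, with Spry2 at -4.26 (SE 0.199). Dusp4, given as a description because its prefrontal cortex values chose it, had -4.24. Dusp6, with a log2 difference of 0.25 (95% interval -0.03 to 0.54), and Spry4, with -0.38 (95% interval -0.87 to 0.12), did not pass. Dusp1 did not pass without animal 3, 7 or 8 (highest edgeR adjusted p 0.134). Striatum against prefrontal cortex, 4 genes were lower in the striatum and passed, against 22.2% of 14514 genes passing in either direction. These were Dusp6 with a log2 difference of -0.79 (SE 0.157, edgeR adjusted p 0.00324), Dusp3 with -0.59 (SE 0.093, edgeR adjusted p 0.000625), Dusp7 with -0.50 (SE 0.138, edgeR adjusted p 0.0181) and Spred1 with -0.28 (SE 0.0966, edgeR adjusted p 0.0492). Spred1, which restrains Ras together with neurofibromin, was past the threshold in none of the fits that left out 1 animal, with edgeR adjusted p between 0.0891 and 0.125, and Dusp7 did not pass without animal 3 (edgeR adjusted p 0.0925). Spry4, at 18.3 ± 1.97 CPM in the striatum and 17.6 ± 0.948 CPM in the prefrontal cortex (SD, n = 4), had a log2 difference of -0.02 (95% interval -0.28 to 0.24).

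Dusp4, a nuclear phosphatase of ERK, JNK and p38 (Entrez 319520, chromosome 8, 34807610 to 34819894 in GRCm38.p6), was lower in the prefrontal cortex at both higher doses. The 4 vehicle libraries held 21.1, 24.2, 25.9 and 27.1 CPM. At 0.1 mg/kg the 5 libraries held 16.1, 23, 25.4, 25.9 and 30.9 CPM. At 1 mg/kg the lowest, median and highest of the 6 libraries were 11.5, 15.7 and 19 CPM, and at 6 mg/kg they were 9.0, 12.4 and 18.4 CPM. All 12 libraries at 1 and 6 mg/kg were therefore below all 4 vehicle libraries, while the 0.1 mg/kg libraries overlapped vehicle. The share of all genes below vehicle with no overlap was 1.27% for the 1 mg/kg group and 1.92% for the 6 mg/kg group. The fitted level was 0.535 times vehicle in the 6 mg/kg group, 0.634 times in the 1 mg/kg group and 0.989 times in the 0.1 mg/kg group, and the 3 values share the same vehicle libraries. The slope over dose rank, which counts the groups as steps 0, 1, 2 and 3, was -0.35 on the log2 scale per step (SE 0.0621, 21 libraries). Since this slope chose the gene, it carries no test here.

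**Figure D2:**
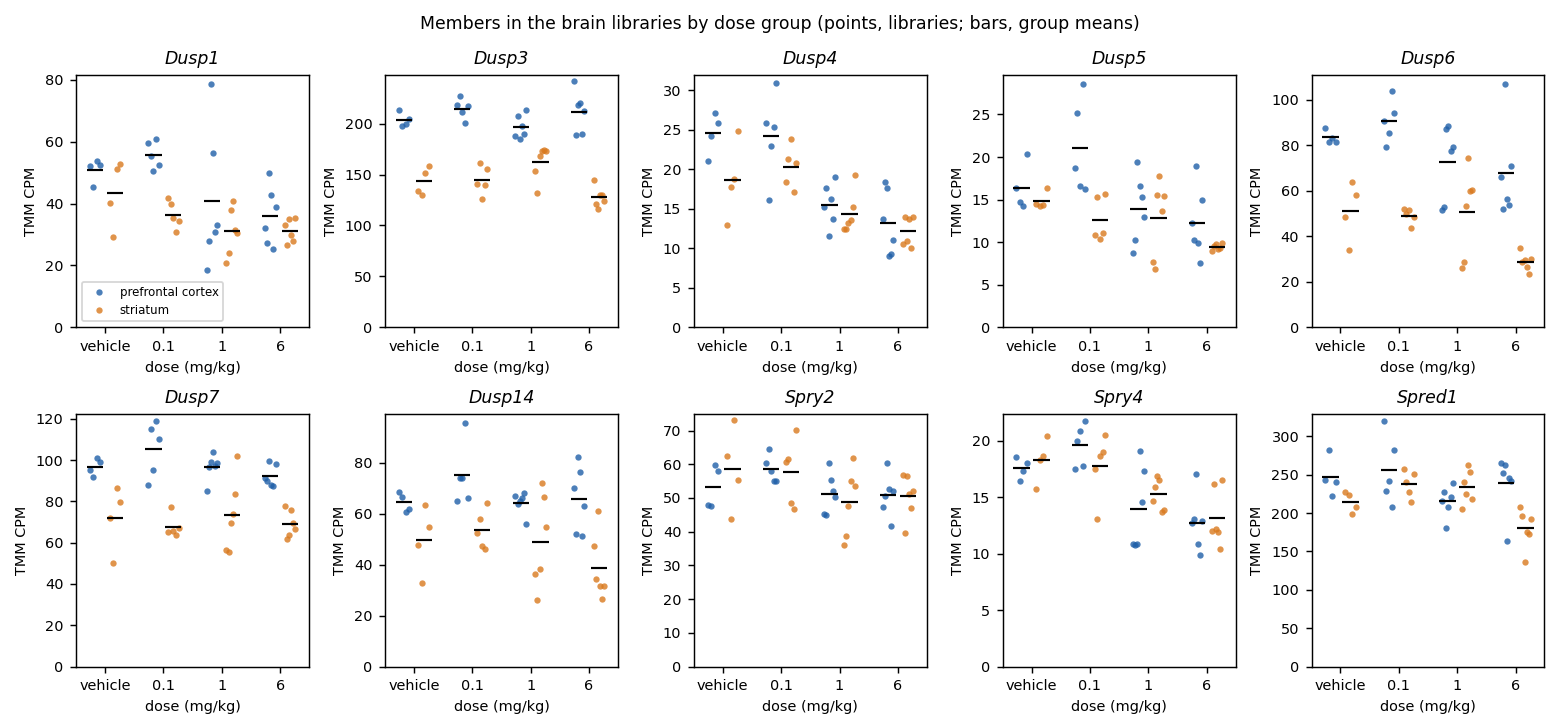
TMM-scaled CPM of each gene in the prefrontal cortex and striatum libraries by dose group (4, 5, 6 and 6 libraries per region), with 1 point per library and a bar at the group mean. Dusp4 in the prefrontal cortex at 1 and 6 mg/kg lies below every vehicle library, and Dusp5 in the striatum at 6 mg/kg lies between 8.98 and 9.91 CPM, under the lowest vehicle value of 14.3 CPM.

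Among the other 9 genes in the prefrontal cortex none passed at any dose or for the slope. The percentage of all 14838 genes called by edgeR was 0.0202% for the slope and 0% at each dose, where the 6 mg/kg contrast held 1376 genes under an unadjusted p of 0.05 and 25 genes called by DESeq2. Without adjustment, Spry4, Dusp5, Dusp1 and Dusp6 had a slope under that threshold, all 4 lower with dose, where 5.58% of all genes were both lower and under it. Spry4, an inhibitor of receptor signalling to Ras (Entrez 24066), was measured at 16.4, 17.3, 18 and 18.6 CPM in the vehicle libraries. For 6 mg/kg the lowest, median and highest of its 6 libraries were 9.86, 12.8 and 17.1 CPM. Of those 6, 5 were below every vehicle library and the highest overlapped them. Its slope was -0.20 per step (SE 0.0543, edgeR adjusted p 0.164), and DESeq2 gave an adjusted p of 0.0495 for it in a fit that called 0.553% of genes.

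At 0.1 mg/kg against vehicle in the prefrontal cortex 0 of the 9 genes other than Dusp4 had an unadjusted p under 0.05. By the fit 0 of these 9 were below vehicle, against 48.1% of all genes, and their log2 differences ran from 0.05 for Spred1 to 0.36 for Dusp5 where the median of all genes was 0.01. The 9 genes are not independent of each other, and they were not tested as a set. The 0.1 mg/kg means were 21.1 ± 5.54 CPM for Dusp5, 55.7 ± 4.44 CPM for Dusp1, 90.8 ± 9.23 CPM for Dusp6 and 19.6 ± 1.88 CPM for Spry4 (SD, n = 5). Their ranges overlapped the vehicle ranges.

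The ERK phosphatases Dusp5 and Dusp6 and the stress-inducible Dusp1 had a larger SD at 1 and 6 mg/kg than in vehicle in the prefrontal cortex. In the striatum the SD at 6 mg/kg was smaller than in vehicle for all 3, with 3.68 against 11 CPM for Dusp1, 3.79 against 13.1 CPM for Dusp6 and 0.358 against 0.961 CPM for Dusp5. At 1 mg/kg there it was larger than in vehicle for Dusp6 (19.2 CPM) and Dusp5 (4.53 CPM) and smaller for Dusp1 (7.67 CPM). A difference in spread was not tested. The values that follow are for the prefrontal cortex. Dusp1, a nuclear phosphatase that prefers p38 and JNK, averaged 50.9 ± 3.84 CPM in vehicle (SD, n = 4). The 1 mg/kg mean was 40.8 ± 22.4 CPM (SD, n = 6), where the lowest library held 18.4 and the highest 78.7 CPM. At 6 mg/kg its 6 libraries ran from 25.3 to 50 CPM, and its slope was -0.21 per step (SE 0.0837, edgeR adjusted p 0.404). Dusp6 averaged 83.5 ± 2.87 CPM in vehicle (SD, n = 4). The 6 mg/kg mean was 67.7 ± 20.7 CPM (SD, n = 6), with 5 of 6 libraries below every vehicle library and the other, animal 54, at 107 CPM above them. Its slope was -0.13 per step (SE 0.0544, edgeR adjusted p 0.409). Dusp5, a nuclear phosphatase of ERK, averaged 16.4 ± 2.75 CPM in vehicle (SD, n = 4). Its 6 mg/kg mean was 12.3 ± 4.07 CPM (SD, n = 6), with a slope of -0.21 (SE 0.0806, edgeR adjusted p 0.352). For Dusp3, Dusp7, Dusp14, Spry2 and Spred1 the slopes lay between -0.05 and 0.00. The interval for Dusp3, a small phosphatase active on ERK and JNK, was -0.05 to 0.05 per step.

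The choice of Dusp4 did not use the striatum libraries. These carry the same animal numbers as the prefrontal cortex libraries, so they are not an independent check of that gene. In the striatum 0 of the 10 genes passed at any dose or for the slope. There 0% of 15118 genes passed in edgeR. At the highest dose 2377 genes were under an unadjusted p of 0.05, and DESeq2 called 31. All 10 genes were lower at 6 mg/kg by the fit, against 48.3% of all genes. Unadjusted, 6 of the 10 were lower with a p under 0.05 (Dusp1, Dusp4, Dusp5, Dusp6, Spry4 and Spred1), where 8.24% of genes were. The median log2 difference of the 10 was -0.41, and that of all genes was 0.01. Within dose groups 40 of the 45 pairs of these genes were positively correlated in the striatum, with a median of 0.37. The counts are therefore not of independent genes, and the list was not tested as a set. The 6 mg/kg libraries were also shallower than the vehicle ones, and the part of depth in the values was not tested.

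Dusp4 was measured at 13, 17.7, 18.8 and 24.9 CPM in the striatum of vehicle animals. The 5 libraries at 0.1 mg/kg held 17.1, 18.4, 20.8, 21.3 and 23.8 CPM. At 1 mg/kg the lowest, median and highest were 12.5, 13.4 and 19.3 CPM, and at 6 mg/kg they were 10, 12.3 and 14 CPM. The 6 mg/kg libraries were all below the vehicle mean of 18.6 CPM, 3 of them below every vehicle library, and the lowest vehicle library overlapped the rest. The log2 difference at 6 mg/kg was -0.61 (SE 0.161, edgeR adjusted p 0.208), and the slope was -0.25 per step (SE 0.0553, edgeR adjusted p 0.176). DESeq2 gave an adjusted p of 0.0355 for the slope, calling 0.146% of genes.

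Dusp6 and Dusp5 had the lowest log2 values of the list in the striatum at 6 mg/kg. Dusp6 vehicle libraries held 33.8, 48.6, 58.1 and 63.8 CPM, and the 6 libraries at 6 mg/kg ran from 23.5 to 34.8 CPM with a median of 29.1 CPM. The groups overlapped by a single library on each side, and the log2 difference was -0.82 (SE 0.221, edgeR adjusted p 0.208). At 1 mg/kg Dusp6 ran from 26 to 74.5 CPM, wider than vehicle on both sides. Dusp5 vehicle libraries held 14.3, 14.4, 14.5 and 16.3 CPM, and the 6 mg/kg libraries ran from 8.98 to 9.91 CPM with a median of 9.38 CPM. These groups did not overlap, as for 1.91% of all genes in that direction, and the log2 difference was -0.66 (SE 0.201, edgeR adjusted p 0.208). At 1 mg/kg Dusp5 ran from 6.83 to 17.8 CPM, across the whole vehicle range.

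Spry4, Dusp1 and Spred1 had smaller log2 differences from vehicle in the striatum. Spry4 averaged 18.3 ± 1.97 CPM in vehicle (SD, n = 4) against 13.2 ± 2.54 CPM in the 6 mg/kg group (SD, n = 6), a log2 difference of -0.47 (SE 0.138, edgeR adjusted p 0.208). Dusp1 averaged 43.3 ± 11 CPM in vehicle (SD, n = 4) against 31.2 ± 3.68 CPM in the 6 mg/kg group (SD, n = 6), a log2 difference of -0.47 (SE 0.166, edgeR adjusted p 0.218). Spred1 was highest at 0.1 mg/kg, with 238 ± 17.5 CPM (SD, n = 5), and had 180 ± 25.4 CPM at 6 mg/kg (SD, n = 6) beside 214 ± 13.4 CPM in vehicle (SD, n = 4). Its log2 difference at 6 mg/kg was -0.25 (SE 0.102, edgeR adjusted p 0.253). Dusp7, a cytoplasmic ERK phosphatase, had an interval of -0.37 to 0.24 at 6 mg/kg.

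The way dose entered the fit changed the striatum calls. With the slope taken over mg/kg instead of dose rank, so that the 6 mg/kg libraries carry most of the weight, 5 of the 10 genes passed and were lower (Dusp4, Dusp5, Dusp6, Spry4 and Spred1, edgeR adjusted p 0.01 to 0.0356), and 12.3% of all genes passed. Against 0.1 mg/kg in place of vehicle, 3 genes passed at 6 mg/kg, Dusp4 with a log2 difference of -0.73, Dusp6 with -0.77 and Spred1 with -0.41, and 2.91% of all genes passed. Without the 4 libraries high in choroid plexus markers, 0 of the 10 genes and 0% of all genes passed by the main design at 6 mg/kg. The log2 differences of the 6 genes named above then ran from -0.88 for Dusp6 to -0.30 for Spred1 (edgeR adjusted p 0.154 to 0.192).

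**Figure D3:**
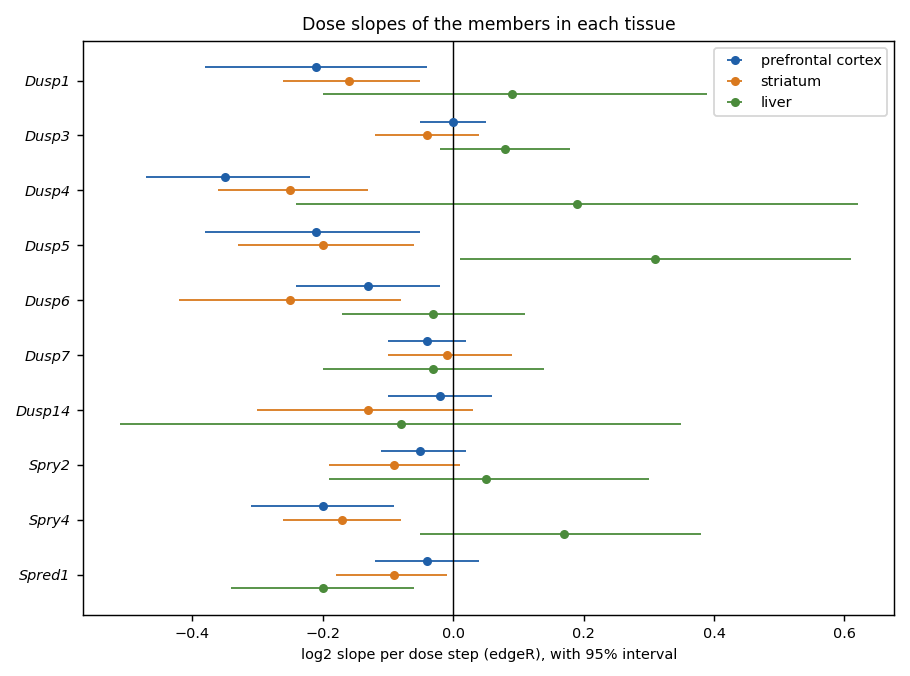
Log2 slope per dose step of each gene in the prefrontal cortex (21 libraries), striatum (21) and liver (20), with the 95% interval of the edgeR test. Intervals of Dusp1, Dusp5, Dusp6 and Spry4 lie below 0 in both brain regions, as does that of Dusp4 in the striatum. Dusp4 was chosen by its prefrontal cortex slope, so nothing is read from its interval there, and none of the other slopes passed after adjustment.

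The slopes of the 2 brain regions were compared in a single model over their 42 libraries. The difference, striatum minus prefrontal cortex, passed for 0 of the 9 genes other than Dusp4 and for 0% of 15402 genes by edgeR and by DESeq2, with 0 of the 9 at an unadjusted p under 0.05, where 768 of all genes (4.99%) were. Differences of the 9 lay between -0.12 for Dusp6 (95% interval -0.33 to 0.09) and 0.05 for Dusp1 (95% interval -0.16 to 0.25). Dusp4, given as a description, differed by 0.10. These intervals are wide beside the slopes themselves, so slopes of like size in both regions were not shown.

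In the liver 0 of the 10 genes passed, where the share of all 12968 genes that passed was 4.81% for the slope and, from the highest dose down, 2.8%, 0% and 0.0154%. Spred1 was nearest to the threshold. Its vehicle libraries held 21.9, 22.7, 24.4 and 24.5 CPM, and at 6 mg/kg the lowest, median and highest of 6 were 9.6, 15.9 and 20.8 CPM. The groups did not overlap, as for 3.49% of all genes in that direction. The log2 difference was -0.56 (SE 0.223, edgeR adjusted p 0.133) and the slope -0.20 per step (SE 0.0678, edgeR adjusted p 0.0843). The slope passed when animal 41 at 1 mg/kg, the highest of its group with 29.8 CPM, or animal 55 at 6 mg/kg was left out (lowest edgeR adjusted p 0.0356).

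Dusp5 in the liver had the opposite sign to the brain. Its libraries ran from 0.422 to 1.43 CPM in vehicle and from 0.48 to 3.51 CPM at 6 mg/kg, with 3 of 6 above every vehicle library, and the slope was 0.31 per step (SE 0.146, edgeR adjusted p 0.185). It was 0.19 without animal 58 and 0.20 without the 4 libraries high in neuron markers (edgeR adjusted p 0.485 and 0.526). The slope in the liver minus that in the prefrontal cortex was 0.53 (SE 0.156, edgeR adjusted p 0.0433), where 3.91% of 14553 genes passed. It was the single one of the 9 genes other than Dusp4 to pass, and it rests on liver levels near 1 CPM. Leaving out 1 animal gave edgeR adjusted p between 0.0324 and 0.144, and Dusp5 passed only in the 8 of 21 such fits without animal 8, 41, 42, 45, 46, 53, 54 or 55. Spry4 had a slope difference of 0.36 (SE 0.12, edgeR adjusted p 0.0714), which passed without animal 52 (edgeR adjusted p 0.043), and Spred1 one of -0.16 (SE 0.08, edgeR adjusted p 0.23). Dusp6 in the liver, at 52.2 ± 9.39 CPM in vehicle (SD, n = 4) against 54.3 ± 14.2 CPM in the 6 mg/kg group (SD, n = 6), had a slope of -0.03 (95% interval -0.17 to 0.11).

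Genes that ERK activity induces within minutes to hours, such as Fos, Egr1 and Arc, were followed as a list of 18 beside the feedback genes. In the prefrontal cortex all 18 slopes were negative, 8 had an unadjusted p under 0.05 where 5.58% of all genes were lower and under it, and 0 passed. Their median was -0.19 per step where that of all genes was 0.00. At 0.1 mg/kg, in contrast, 17 of the 18 were above vehicle there, with a median log2 difference of 0.36. Of these, 4 were higher at an unadjusted p under 0.05, where 3.4% of all genes were, and 0 passed. For the slope the smallest p there were those of Fosb at -0.34 per step (SE 0.0805, edgeR adjusted p 0.114), Nr4a3 at -0.32 (SE 0.0837, edgeR adjusted p 0.164) and Jun at -0.14 (SE 0.0396, edgeR adjusted p 0.185). In the striatum 17 of 18 slopes were negative, 15 had an unadjusted p under 0.05 where 6% of all genes were lower and under it, and 0 passed, with a median of -0.25. The early genes cannot be counted as independent of each other, and the list was not tested as a set in either region. At 0.1 mg/kg 13 of the 18 were below vehicle in the striatum, with a median of -0.10. For the striatum slope the smallest p were those of Fosl2 at -0.50 per step (SE 0.103, edgeR adjusted p 0.176), Fos at -0.40 (SE 0.1, edgeR adjusted p 0.243) and Egr1 at -0.29 (SE 0.0763, edgeR adjusted p 0.253). With the striatum slope taken over mg/kg, where 12.3% of all genes passed, 6 of the 18 passed, these 3 among them (edgeR adjusted p 0.0167, 0.0249 and 0.0172). In the liver 11 of the 18 were tested, the median was 0.02, and Ier2 was higher with dose and passed, at 0.29 per step (SE 0.0755, edgeR adjusted p 0.0335). For that slope 4.81% of all liver genes passed, so 1 in a list of that size is near the background. Ier2 did not pass without the 4 liver libraries high in neuron markers (0.23 per step, edgeR adjusted p 0.158), nor without animal 3, 4, 7, 28, 29, 52, 53, 54 or 58 alone.

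**Figure D4:**
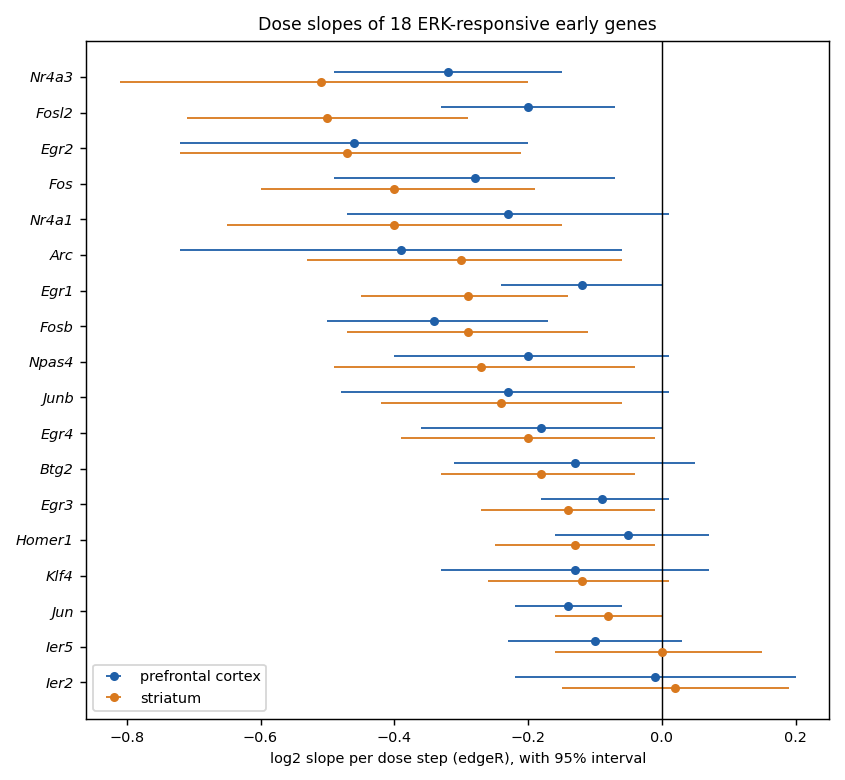
Log2 slope per dose step of the 18 early genes in the prefrontal cortex and striatum (21 libraries each) with the 95% interval of the edgeR test, ordered by the striatum slope. Points lie at or below 0 for all genes but Ier2 in the striatum, at 0.02.

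Within dose groups, several of the feedback genes moved with the early genes from library to library. The early gene score was the mean deviation of the list from the dose group mean in log2 CPM, and each feedback gene's own deviation was set against it, 30 relations in all over 3 tissues. By r, 4 of the 9 genes other than Dusp4 had an adjusted permutation p under 0.05 in the prefrontal cortex, where 0.203% of all genes outside the early list had an absolute r as large as the weakest of the 4 (0.72). In the striatum 7 of 10 did, where 8.08% of such genes reached the weakest of the 7 (0.53). Dusp6 had Pearson's r of 0.85 and Spearman's rho of 0.80 in the prefrontal cortex and 0.95 and 0.92 in the striatum (permutation p 1e-05 for each r, the smallest the draws can give, adjusted 7.5e-05, and 3e-05 and 1e-05 for rho). Without the 2 libraries farthest from the median score its r was 0.79 and 0.91. Dusp1 had r of 0.86 and 0.90 with rho of 0.89 and 0.88 (permutation p 1e-05 for each r and rho, adjusted 7.5e-05 for r), and Dusp5 had r of 0.78 in both regions with rho of 0.73 and 0.68 (permutation p 5e-05 for each r, adjusted 0.00025, and 0.0003 and 0.0013 for rho). Without the 2 libraries Dusp1 kept 0.83 and 0.86 and Dusp5 0.68 and 0.62. Spry2 had r of 0.72 and 0.70 with rho of 0.69 and 0.68 (permutation p 0.0003 and 0.00018 for r, adjusted 0.001 and 0.000675, and 0.00091 and 0.00084 for rho), and r of 0.57 and 0.65 without those libraries.

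Spry4 and Spred1 did not pass in either brain region, and Dusp4 did not in the striatum. Dusp4 had r of 0.41 and rho of 0.44 in the striatum (permutation p 0.0637 for r, adjusted 0.112, and 0.0478 for rho). In the prefrontal cortex, whose values chose it, its r of 0.25 and rho of 0.17 are a description. Spry4 had r of 0.48 (prefrontal cortex) and 0.19 (striatum) with rho of 0.39 and 0.18 (permutation p 0.0276 and 0.407 for r, adjusted 0.0591 and 0.509, and 0.0797 and 0.447 for rho). Without the 2 libraries r was 0.28 and 0.49 for Dusp4 and 0.58 and 0.15 for Spry4. They were not the lowest everywhere, as r was 0.04 for Dusp3 and -0.20 for Spred1 in the prefrontal cortex and 0.15 for Spred1 in the striatum (permutation p 0.871, 0.381 and 0.505, adjusted 0.879, 0.497 and 0.582, with rho of 0.01, -0.24 and 0.09 at permutation p 0.954, 0.3 and 0.712). Whether any of these r differ from those of Dusp6 was not tested. Dusp14 (r 0.75, rho 0.76), Dusp7 (r 0.65, rho 0.57) and Dusp3 (r 0.53, rho 0.54) also passed in the striatum (permutation p 6e-05, 0.00159 and 0.0146 for r, adjusted 0.000257, 0.00477 and 0.0365, and 8e-05, 0.00839 and 0.0128 for rho), with r of 0.78, 0.67 and 0.58 without the 2 libraries. In the prefrontal cortex Dusp14 (r 0.42) and Dusp7 (r 0.49) did not pass by r (permutation p 0.0544 and 0.0252, adjusted 0.108 and 0.0582). By rank Dusp7 passed there with rho of 0.56 (permutation p 0.00964, adjusted 0.0263), and Dusp14 did not with 0.22 (permutation p 0.342, adjusted 0.446). In the liver 1 of 10 passed, Dusp7 with r of -0.57 and rho of -0.38 (permutation p 0.00779 for r, adjusted 0.0212, and 0.101 for rho), where 0.51% of genes had an absolute r as large, and with r of -0.20 without the 2 libraries that relation rests on them. Libraries of a region share punch composition and depth as well as signalling, and the part of these was not tested.

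**Figure D5:**
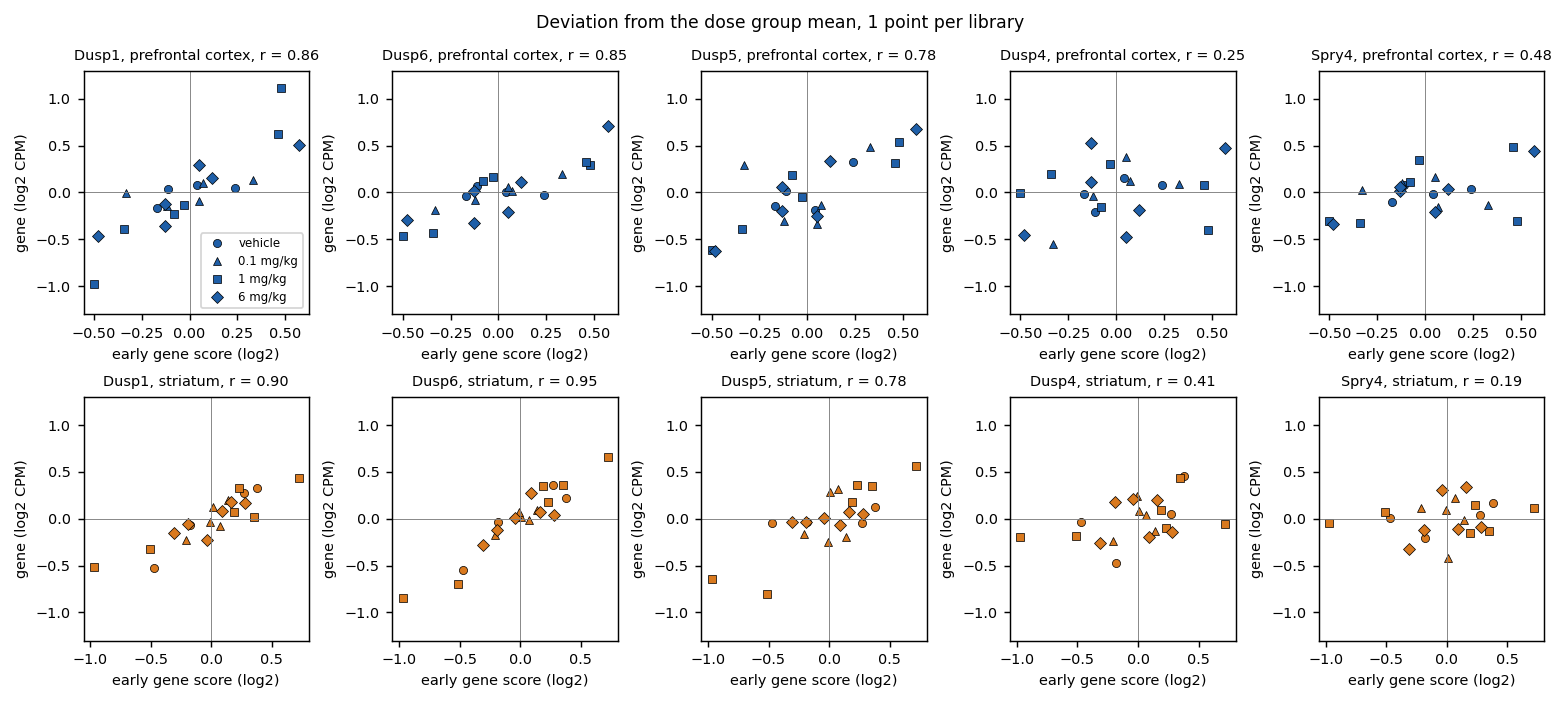
Deviation of 5 feedback genes from their dose group mean (log2 CPM) against that of the early gene score, in the prefrontal cortex (upper row) and striatum (lower row), with 1 point per library (21 each) and a marker shape per dose. Points of Dusp1 and Dusp6 lie along a rising line in both regions, and those of Dusp4 and Spry4 scatter.

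The prefrontal cortex and striatum libraries that carry the same animal number were set against each other in the same way, on the assumption that a number stands for 1 mouse. That assumption was not established. Over all genes, r between libraries of the same number lay between -0.09 and 0.24, and 4 of 21 matched best with their own number. By r, 3 of the 9 genes other than Dusp4 had an adjusted permutation p under 0.05, where 5.19% of all genes had an absolute r as large as the weakest of the 3, and the median r of all genes was 0.15. Dusp1 deviated together over the 21 numbers, with r of 0.71 and rho of 0.71 (permutation p 0.00029 for r, adjusted over 10 relations 0.0029, and 0.00053 for rho), and r was 0.61 without the 2 libraries farthest from the median. Dusp6 had r of 0.59 and rho of 0.58 (permutation p 0.00531 for r, adjusted 0.0265, and 0.00638 for rho) and Dusp5 r of 0.53 and rho of 0.48 (permutation p 0.0135 for r, adjusted 0.0451, and 0.0306 for rho, adjusted 0.102, so that it did not pass by rank), with 0.63 and 0.52 without those libraries. Dusp4 had r of 0.14 and rho of 0.07, given without a test because its prefrontal cortex values chose it. Spry4 had r of 0.08 and rho of 0.10 (permutation p 0.744 for r, adjusted 0.744, and 0.67 for rho). The genes most like Dusp4 by r of the same deviations over 21 libraries were Irs2 (0.87), Bcl9l (0.82), Elfn2 (0.82), Orai2 (0.81) and Chd3 (0.78) in the prefrontal cortex. In the striatum they were Zfp746 (0.83), Lasp1 (0.81), Wnk2 (0.81), Syn2 (0.80) and Camk1g (0.79). Of the other members, Spred1 was nearest to Dusp4 in the prefrontal cortex with r of 0.55 and Dusp7 in the striatum with 0.43. Single early genes lay nearer than these. In the prefrontal cortex r with Dusp4 was 0.74 for Nr4a3 (rank 19 of 14831 genes), 0.68 for Klf4 and 0.59 for Fosb, while Btg2 was lowest of the 18 at -0.48. In the striatum Fosb was nearest with 0.68 (rank 172 of 15111) and Btg2 lowest with -0.14. These early genes were picked after their values were seen.

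Of the other pathway genes, 1 passed for the dose slope in the brain. Of 9 further MAP kinase phosphatase, Sprouty and Spred genes tested in the prefrontal cortex, and of 8 in the striatum, 0 passed, and Dusp8 (-0.06 per step), Spred2 (-0.11) and Spred3 (-0.07) had the smallest p in the prefrontal cortex. Of 30 genes of the Ras to ERK cascade 0 passed in either region, with medians of -0.02 and -0.03 per step. Mapk7, which encodes ERK5, had 0.16 in the striatum (SE 0.0453, edgeR adjusted p 0.267). Of 20 p38 and JNK genes 0 passed in the prefrontal cortex, as of 19 tested in the striatum. Among 27 receptors and ligands upstream, 1 fell in the prefrontal cortex, the growth factor gene Pdgfb at -0.21 per step (SE 0.0354, edgeR adjusted p 0.0186), and 0 passed in the striatum. Pdgfb did not pass without animal 7, 55, 56 or 58 (highest edgeR adjusted p 0.101). Of the ETS and MEK output genes 0 of 11 passed in each region, with Etv4 at 0.24 in the striatum (SE 0.0622, edgeR adjusted p 0.253). In the liver Map2k3, a kinase of p38, rose by 0.21 per step (SE 0.0498, edgeR adjusted p 0.0255) and Egf by 0.89 (SE 0.239, edgeR adjusted p 0.0369), 1 gene of 18 and 1 of 21 tested in their lists, and 0 of 28 cascade genes passed. With 4.81% of all liver genes past the threshold, 1 in a list of that size is near the background. Egf was also scarce, with 0.267 ± 0.149 CPM in vehicle (SD, n = 4) against 1.62 ± 1.01 CPM in the 6 mg/kg group (SD, n = 6). Without the 4 liver libraries high in neuron markers neither passed (edgeR adjusted p 0.105 and 0.135). Nor did Map2k3 without animal 3, 4, 52 or 58, or Egf without animal 3, 4, 7, 8, 23, 28, 52, 53, 54 or 58.

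Of the markers of other cells, 0 passed an adjusted p of 0.05 in edgeR in either brain region, for the slope or at any dose, so the counts here are unadjusted. Under an unadjusted p of 0.05, 5.58% of all genes were lower and 4.21% higher for the prefrontal cortex slope. For the striatum slope the shares were 6% lower and 7.05% higher, and at 6 mg/kg against vehicle there 8.24% were lower. Of all genes, 49.2%, 47.5% and 48.3% were negative in these fits, in that order. Of 4 blood cell markers tested, 3 were lower with dose at an unadjusted p under 0.05 in each brain region. The fourth had a positive slope in both, at an unadjusted p under 0.05 in the prefrontal cortex. In that region the summed level ran from 43.7 to 584 CPM in vehicle with a median of 85.7, and from 14.6 to 83.3 CPM at 6 mg/kg with a median of 42.2, while the 0.1 mg/kg median was 144 CPM. The highest vehicle value was a single library, animal 8, and the next was 108 CPM. In the striatum the sum ran from 69.9 to 547 CPM in vehicle, where animal 8 was again highest and the next was 136 CPM, and from 45.8 to 142 CPM at 6 mg/kg. Of 5 upper layer neuron markers in the prefrontal cortex, 3 were higher with dose at an unadjusted p under 0.05 and the median slope was 0.10, with a summed level from 505 to 695 CPM in vehicle and from 607 to 661 CPM at 6 mg/kg. Of 9 striatal projection neuron markers there, 8 had a positive slope with a median of 0.04, and at 6 mg/kg all 9 were above vehicle with a median log2 difference of 0.20, none at an unadjusted p under 0.05. Their sum ran from 1429 to 3737 CPM in vehicle and from 1854 to 3550 CPM at 6 mg/kg. All 6 inhibitory interneuron markers had positive slopes in the prefrontal cortex (median 0.06, 0 at an unadjusted p under 0.05), with sums from 925 to 1200 CPM in vehicle and from 1022 to 1352 CPM at 6 mg/kg. Of 6 general neuron markers in that region, 2 were lower at that threshold and the median slope was -0.02, with sums from 8414 to 10451 CPM in vehicle and from 8011 to 9639 CPM at 6 mg/kg. All 6 oligodendrocyte markers had positive slopes in both regions, 2 of them at an unadjusted p under 0.05 in the striatum, where the sum ran from 4381 to 6618 CPM in vehicle and from 6597 to 9234 CPM at 6 mg/kg. The sum of 4 oligodendrocyte precursor markers in the striatum ran from 326 to 379 CPM in vehicle and, without overlap, from 403 to 464 CPM at 6 mg/kg. Of all single genes there, 1.67% were above vehicle with no overlap at that dose, a share for genes rather than sums. In the striatum at 6 mg/kg against vehicle, where all 10 feedback genes were lower by the fit, all 8 cortical deep layer markers were negative too, 2 of them at an unadjusted p under 0.05, with a median log2 difference of -0.16. Their sum ran from 531 to 751 CPM in vehicle and from 397 to 734 CPM at 6 mg/kg. All 6 general neuron markers were negative in that contrast, 1 at an unadjusted p under 0.05, with a median of -0.20 and sums from 3855 to 6122 CPM in vehicle and from 3494 to 4598 CPM at 6 mg/kg. The striatal projection neuron markers were negative for 3 of 9, with a median of 0.13. The part of these markers in the results for the feedback genes was not tested. Libraries of a group carry different animal numbers in their titles, but no label says that they came from separate mice. The p-values therefore measure the spread between these libraries. With 4 vehicle libraries per tissue a moderate difference in a single gene may not pass.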

How the data were processed

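RNA-seq read counts per gene of 62 libraries were used as the authors deposited them, in 1 table per tissue keyed by Entrez identifier. The submitters' processing notes name FastQC, HISAT2 and the build mm10; the counter, annotation and strand setting are not given in the sources used here. All values are whole, each listed gene has a total of at least 10 counts, and no 2 libraries of a group agreed within counting noise (chi-square per degree of freedom at least 2.94).

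Counts were fitted per tissue with edgeR 4.0.16 in R 4.3.3 (TMM scaling, filterByExpr on dose groups, robust quasi-likelihood test), with Benjamini-Hochberg adjustment over all genes tested and a threshold of 0.05. CPM values are TMM-scaled, and 95% intervals use the test's own degrees of freedom. Tissues were compared on genes in both tables. Within-group deviations used log2 CPM with a prior count of 2 and 100000 permutation draws, two-sided. Gene symbols, coordinates and promoters come from RefSeq GRCm38.p6, and transcript lengths and GC content from GENCODE vM21. The fits were tested on simulated data.

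The members and lists were chosen with earlier results of these data known. The text names the 10 members, and of each list the genes that passed or else at most 3 with the smallest p. Of genes like Dusp4 it names 5 per region by r. Of the list genes within this rule, 1 is not reported here. Alternatives were DESeq2 1.42.0, median-ratio size factors, other count filters, 1 surrogate variable (sva 3.50.0), a GC and length offset, other dose scales and references, an animal number block, and leaving out each library. Leaving out libraries high in choroid plexus or neuron markers, and the alternatives for the early gene list, were added after seeing the data.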

Additional observations from a re-analysis of the deposited data

Results flagged for a closer look

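A library stood apart from the rest of its dose group in 9 of 120 groups of 4 to 6 libraries, where chance gives about 6. In the prefrontal cortex these were Dusp6 at 6 mg/kg in animal 54, the highest with 107 CPM, Dusp7 at 1 mg/kg in animal 41, the lowest with 85.1 CPM, Dusp14 at 1 mg/kg in animal 50, the lowest with 56 CPM, and Spred1 at 6 mg/kg in animal 55, the lowest with 164 CPM. In the striatum they were Dusp5 in vehicle animal 8, the highest with 16.3 CPM, and Dusp7 at 0.1 mg/kg in animal 24, the highest with 77.1 CPM. In the liver they were Dusp1 in vehicle animal 4, the highest with 25.8 CPM, Dusp1 at 0.1 mg/kg in animal 23, the highest with 64 CPM, and Spred1 at 1 mg/kg in animal 41, the highest with 29.8 CPM. The slope of Dusp5 over dose rank differed between liver and prefrontal cortex by 0.53 per step in the joint edgeR model, on liver counts of 4 to 30 per library.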

How the results depend on the processing

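In the striatum the calls among the 10 genes moved with the test and the dose scale. Counts for the prefrontal cortex, alone or against another tissue, with or without dose, take in Dusp4, whose values there chose it, so they are a description and nothing is read from them. DESeq2 called 1 in the prefrontal cortex at 6 mg/kg (0.168% of all genes), 2 for the slope there (Spry4 the one beside Dusp4), 1 for the striatum slope (Dusp4) and 3 for the liver minus prefrontal cortex slope (8.18%). With 0.1 mg/kg as the reference the 6 mg/kg group gave 1 call in the prefrontal cortex (0.108%), while the striatum gave 3. Over mg/kg 0 were called for the prefrontal cortex slope (0.0404%) and 5 for the striatum slope, and 6 of the 18 early genes were called in the striatum, where 12.3% of all genes were. With a GC and length offset 0 were called for the prefrontal cortex slope, and the slope of Mapk8ip3, a scaffold of JNK, turned from -0.04 to 0.01 per step. Leaving out 1 library at a time gave 0 to 1 called genes for the prefrontal cortex slope (0 to 3 of all genes) and 0 to 1 for the liver slope (79 to 1317 of all genes). Leaving out 1 animal at a time gave 2 to 4 for striatum against prefrontal cortex in vehicle (1731 to 3408 of all genes), 7 to 9 for liver against prefrontal cortex (11326 to 11616), and 0 to 1 for the liver minus prefrontal cortex slope (211 to 1015). The cause of these shifts was not tested. Liver levels of Dusp4, Dusp5, Dusp14 and Spry2 rest on few counts, so changes in them were not detectable at this depth unless large.

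With the animal number as a replicate block 0 genes were called for the striatum minus prefrontal cortex slope, 5 for striatum against prefrontal cortex in vehicle (23.9% of all genes; the gene added is Dusp4), 7 for liver against prefrontal cortex (83.2%; without Dusp1, edgeR adjusted p 0.0543) and 0 for the liver minus prefrontal cortex slope (1.61%; Dusp5 at 0.48, edgeR adjusted p 0.0985). Whether the numbers pair the libraries was checked by correlating deviations from group means over genes. For prefrontal cortex and striatum r lay between -0.09 and 0.24, with 12 of 21 over 0.1 and 4 best with their own number. For prefrontal cortex and liver r lay between -0.13 and 0.21, with 2 of 20 over 0.1 and 1 best with its own number.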
